A study of Mus musculus with 8 samples.

Results

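Matrix metalloproteinases (MMPs), the ADAM and ADAMTS metalloproteinases and the tissue inhibitors of metalloproteinases (TIMPs) were examined in F4/80-enriched cells of the mouse inguinal fat pad. Members were the rows of the deposited count table whose gene symbol follows the numbered names of the Mmp, Adam, Adamts and Timp families and which held at least 10 counts over the 8 libraries. Of 79 rows with such a symbol among the 56748 rows of the table, 60 reached that count: 18 MMPs, 20 ADAMs, 18 ADAMTSs and 4 TIMPs. The other 19 rows, mostly germ-line ADAMs, held fewer than 10 counts and are not members.

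All mice were wild-type females, and no age or strain background is given in the sources used here. Aldara mice received about 62.5 mg of Aldara cream, whose active substance at 5% is the Toll-like receptor 7 agonist imiquimod, on shaved back skin on 3 consecutive days. Vehicle mice received an equal volume of a control preparation (Boots Aqueous Cream/10% Vaseline Lanette Cream) in the same way, and both groups were culled 24 h after the final dose. Each group has 4 libraries, and each library is a pool of magnetically selected cells from 6 fat pads, about 30000 cells, from preparations in which over 90% of cells carried F4/80 and CD64 by flow cytometry. The sources used here do not say that the pools of a group hold different animals, and p-values therefore cover only the variation among these pools, which may be technical.

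Metalloproteinases are zinc-dependent enzymes made as inactive precursors and activated by removal of a propeptide, often by furin-like convertases or plasmin. MMPs cleave collagens, elastin and basement membrane. Many ADAMs release the outer parts of membrane proteins such as growth factor precursors and cytokines, ADAMTS enzymes act on proteoglycans and procollagens, and TIMPs block the active site. In fat pads macrophages, fibroblasts and, in females, mammary epithelium all make members of these families.

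Total counts per library lay between 19537607 and 34471508, so that 1 count is worth 0.029 to 0.0512 CPM (counts per 1000000 counts) before scaling with the TMM factors used throughout. The label of an F4/80-selected fraction was checked against marker lists. Summed macrophage markers (16 genes, Adgre1 and Csf1r among them) lay between 1707 and 3579 CPM in Vehicle and between 4040 and 10830 CPM in Aldara. Summed luminal epithelial markers (12 genes, Epcam and Krt8 among them) lay between 14991 and 19678 CPM in Vehicle and between 13967 and 17756 CPM in Aldara. The luminal sum was thus above the macrophage sum in all 8 libraries. Much of the luminal sum came from Krt8, Krt18 and Krt19. Their means were 4143, 2756 and 2975 CPM in Vehicle and 4175, 2498 and 2172 in Aldara. The lists hold different genes and were not scaled to gene length, so the sums do not measure the share of a cell type. How they relate to the flow cytometric purity was not tested. Adgre1, which encodes F4/80 itself, averaged 82.5 ± 20.4 CPM in Vehicle libraries and 967 ± 476 in Aldara libraries (n = 4 each). Summed fibroblast markers (10 genes) lay between 229 and 607 CPM in Vehicle and between 79.9 and 163 CPM in Aldara. In such bulk samples fewer cells of a type and less RNA per cell cannot be told apart.

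Of the 60 members, 46 passed the filter on low counts and were tested, and 10 were called at an adjusted p under 0.05 (edgeR quasi-likelihood test, Benjamini-Hochberg over 16780 genes). Mmp19, Mmp9, Adam19, Adam22 and Timp2 were higher in Aldara. Mmp12, Mmp13, Timp4, Adam10 and Adamts12 were lower in Aldara. The share of all tested genes called was 10.8% (6.98% higher and 3.86% lower), and that of the tested members was 21.7%. With replicate number as a block 6 members were higher and 7 lower, beside 9.21% and 6.14% of all tested genes. The median log2 fold change, Aldara minus Vehicle, was −0.17 over the tested members and 0.01 over all tested genes. Vehicle and Aldara values were fully separate in 10 of the 46 members, beside 17.8% of all tested genes. Aldara was above in 6 and Vehicle in 4 of these, beside 9.97% and 7.79% of all tested genes. Members pass the filter more easily where 1 group is high, and they were chosen with earlier results of these data known, so these shares describe the members only.

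**Figure D1:**
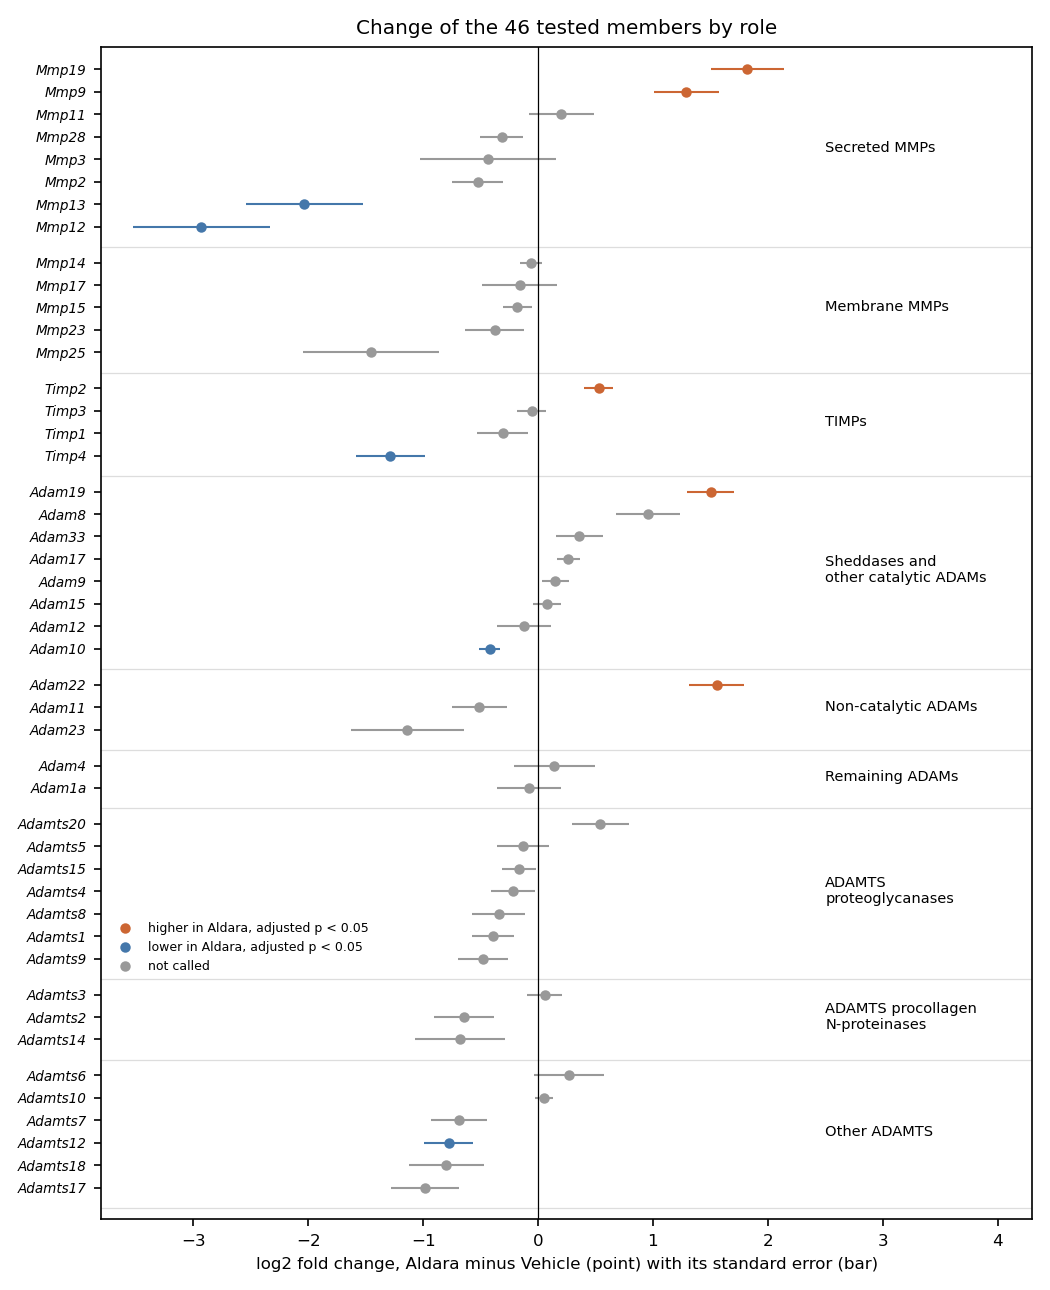
Log2 fold change (Aldara minus Vehicle, x axis) with its standard error for the 46 tested members, grouped by role. The called members run from Mmp12 at −2.93 to Mmp19 at 1.82, and secreted MMPs stand at both ends.

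Levels were compared between genes per kilobase (kb) of annotated exon. In Vehicle the highest members were Adam10 at 126 CPM per kb, the membrane protease Mmp15 at 79.6, the inhibitor Timp2 at 78.2, and the proteoglycanases Adamts1 and Adamts4 at 47.3 and 38.1. In Aldara the order was Timp2 at 113 CPM per kb, Adam10 at 93.8, Mmp15 at 70.3, Adam9 at 40.6 and Adamts1 at 36.0. Timp2 thus stood above Adam10 and Mmp15 in Aldara and below both in Vehicle. Among secreted MMPs Mmp9 was highest in both groups, at 8.93 and 21.9 CPM per kb. Mmp12 lay far down the order at 0.354 and 0.0461 CPM per kb. Of the 60 members, 8 had a Vehicle mean of at least 100 CPM, 11 lay between 10 and 100, 26 between 1 and 10, and 15 below 1 CPM.

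**Figure D2:**
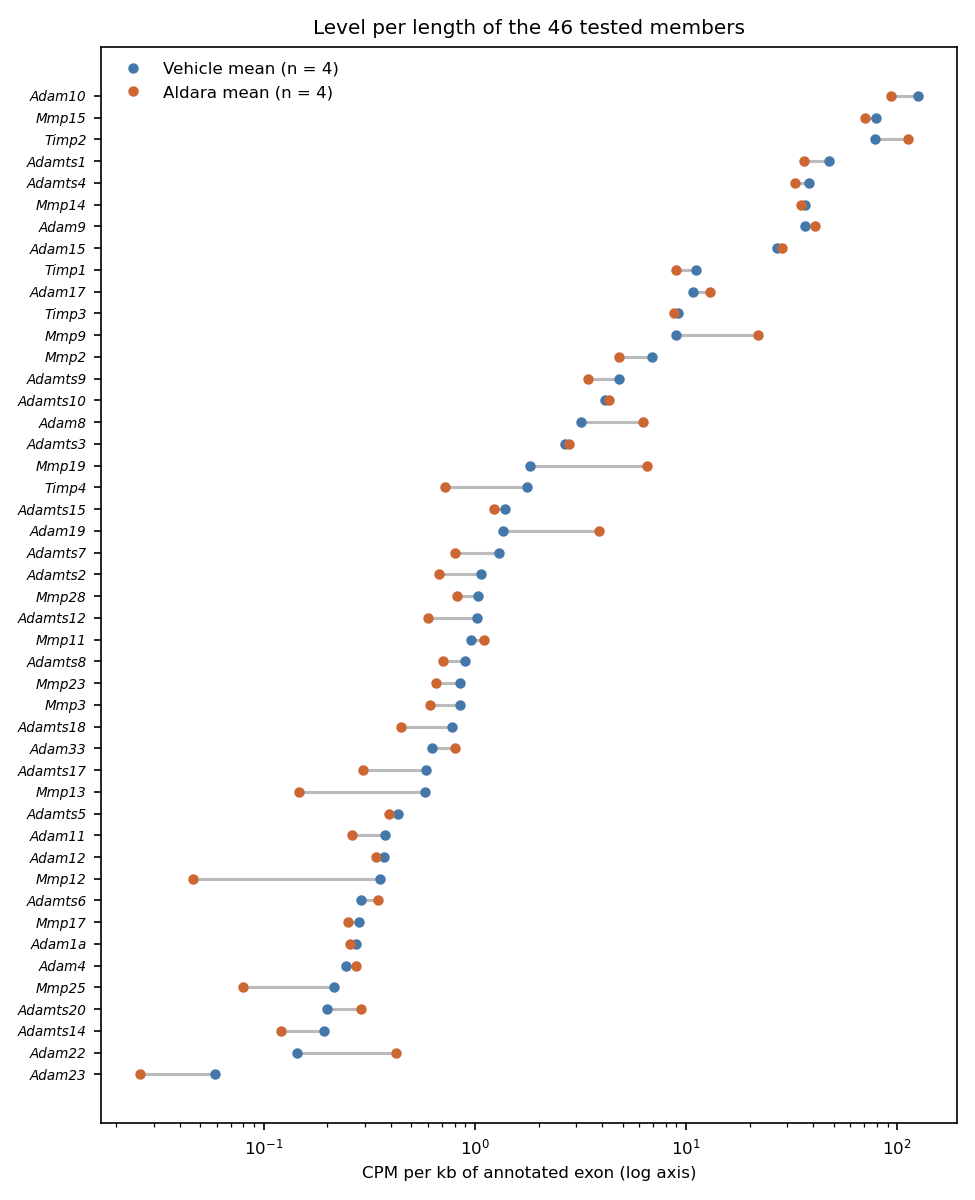
Mean level per kb of annotated exon (log axis) of the 46 tested members in Vehicle (blue) and Aldara (orange), 4 libraries each. Mmp12 moves from 0.354 to 0.0461 CPM per kb and Mmp19 from 1.83 to 6.51, while the paired points of Mmp14 (36.6 and 35.1) nearly coincide.

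Secreted MMPs moved in both directions. Mmp12 encodes macrophage elastase, and Mmp13 encodes collagenase-3, which cleaves fibrillar collagens. They lie side by side in a cluster of 10 MMP genes on chromosome 9 (GRCm38.p6, RefSeq, bases 7272514 to 7699585). Of this cluster 5 genes were members and 3 were tested: Mmp12, Mmp13 and Mmp3, the last encoding stromelysin-1. The RefSeq promoters of these 3 genes, 250 bases before to 50 bases after an annotated start, each hold 1 match to TGANTCA, the consensus site of the transcription factor AP-1. That motif reads the same on both strands. They are shown with a promoter of Adam19, a member that rose and also holds a match, and the match is in capitals (5′ to 3′, all on the plus strand, GRCm38.p6).
Mmp12 chr9:7347124-7347423: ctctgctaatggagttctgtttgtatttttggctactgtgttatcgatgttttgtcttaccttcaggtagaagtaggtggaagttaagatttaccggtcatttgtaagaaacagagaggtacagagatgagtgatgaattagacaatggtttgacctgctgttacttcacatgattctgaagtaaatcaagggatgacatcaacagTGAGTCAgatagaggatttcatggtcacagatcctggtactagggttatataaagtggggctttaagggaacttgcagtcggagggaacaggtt
Mmp13 chr9:7272264-7272563: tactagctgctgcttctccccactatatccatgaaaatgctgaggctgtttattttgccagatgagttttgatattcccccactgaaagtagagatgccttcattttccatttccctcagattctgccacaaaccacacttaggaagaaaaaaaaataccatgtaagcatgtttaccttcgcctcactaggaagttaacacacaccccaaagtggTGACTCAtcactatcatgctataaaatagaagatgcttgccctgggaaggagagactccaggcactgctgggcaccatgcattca
Mmp3 chr9:7445572-7445871: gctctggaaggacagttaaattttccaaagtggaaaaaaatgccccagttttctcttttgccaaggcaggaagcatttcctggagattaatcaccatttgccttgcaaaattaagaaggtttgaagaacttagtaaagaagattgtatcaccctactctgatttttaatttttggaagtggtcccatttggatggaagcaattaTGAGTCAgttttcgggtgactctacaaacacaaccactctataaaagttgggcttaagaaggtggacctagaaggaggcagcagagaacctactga
Adam19 chr11:46055734-46056033: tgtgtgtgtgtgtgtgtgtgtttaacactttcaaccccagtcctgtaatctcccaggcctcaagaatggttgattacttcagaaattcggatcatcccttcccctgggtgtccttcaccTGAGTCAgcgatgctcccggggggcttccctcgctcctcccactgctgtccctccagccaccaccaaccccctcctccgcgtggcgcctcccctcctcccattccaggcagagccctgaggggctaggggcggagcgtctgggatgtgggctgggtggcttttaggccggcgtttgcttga

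Counting from the annotated start, with −1 as the base before it and 1 as the start itself, the match begins at −44 in Mmp12, −35 in Mmp13, −46 in Mmp3 and −131 in Adam19. In the 3 MMP promoters a TATAAA stretch follows the match, beginning at 5, −16 and −7. The promoter at the other RefSeq start of Mmp12 holds no match, and the same is true of the other starts of Adam19. The table held promoters for 38 of the 60 members, and 6 of these 38 genes had a match in at least 1 promoter. Counted per promoter, 14.3% of 42 member promoters and 7.81% of the 32851 promoters in the table held TGANTCA. A match is a description of these letters and not evidence of binding. The 3 genes share the motif, while Mmp12 and Mmp13 were called lower and Mmp3 was not called.

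Mmp12 (ENSMUSG00000049723) measured 1.17, 5.07, 2.51 and 1.48 CPM in Vehicle replicates 1 to 4 and 0.171, 0.120, 0.618 and 0.426 in Aldara replicates 1 to 4. Every Aldara library lay below every Vehicle library, and Vehicle replicate 2 was the highest. The means were 2.56 ± 1.77 and 0.333 ± 0.232 CPM (SD, n = 4 each), from 271 and 30 counts per group. The log2 fold change was −2.93 (SE 0.60, edgeR adjusted p = 0.0131).

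Mmp13 (ENSMUSG00000050578) stood at 1.13, 1.64, 1.95 and 1.51 CPM in the Vehicle libraries and at 0.0427, 0.239, 0.535 and 0.745 in the Aldara libraries. The groups did not overlap, and the lowest library, Aldara replicate 1, held 1 count. The change was, in log2, −2.03 (SE 0.51, edgeR adjusted p = 0.0284). Mmp3 averaged 1.52 ± 1.04 CPM over Vehicle and 1.10 ± 0.718 over Aldara (n = 4 each), and the groups overlapped (edgeR adjusted p = 0.708). Its Vehicle libraries alone ran from 0.450 to 2.86 CPM, so a difference of that size was within the spread between libraries.

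Mmp19 (ENSMUSG00000025355), a secreted MMP that acts on basement membrane proteins, stood at 6.19, 5.57, 7.03 and 7.10 CPM in Vehicle. Its Aldara libraries stood at 10.7, 18.5, 31.0 and 31.9 CPM. All Aldara libraries lay above all Vehicle libraries, with Aldara replicate 1 nearest to them. On the log2 scale the difference was 1.82 (SE 0.32, edgeR adjusted p = 0.00876). Exons of Mmp19 share 789 bases with Tmem198b on the opposite strand. The kit does not mark strand, and Tmem198b itself was at 8.56 ± 0.915 and 9.37 ± 0.388 CPM (n = 4 each, edgeR adjusted p = 0.585). In all, 17 members share exonic bases with another annotated gene, and 4 of these were called: Mmp19, Mmp12, Adam19 and Timp4. The genes that overlap Mmp12 and Adam19 held 0 counts.

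Mmp9 (ENSMUSG00000017737), the gelatinase of leukocytes, stood at 24.7, 29.9, 39.3 and 32.6 CPM in the Vehicle libraries and at 42.3, 64.2, 90.2 and 114 in the Aldara libraries. The groups did not overlap, though Aldara replicate 1 stood close to Vehicle replicate 3. The fitted log2 fold change was 1.29 (SE 0.28, edgeR adjusted p = 0.0205, and 0.00171 with replicate number as a block). Mmp2, the gelatinase of fibroblasts and other stromal cells, measured 23.3 ± 5.57 and 16.1 ± 4.47 CPM (n = 4 each, edgeR adjusted p = 0.169). Mmp11 and Mmp28 had log2 fold changes of 0.20 and −0.32 and were not called. Of the 8 tested secreted MMPs, 2 rose, 2 fell and 4 were not called, beside 6.98% higher and 3.86% lower of all tested genes.

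**Figure D3:**
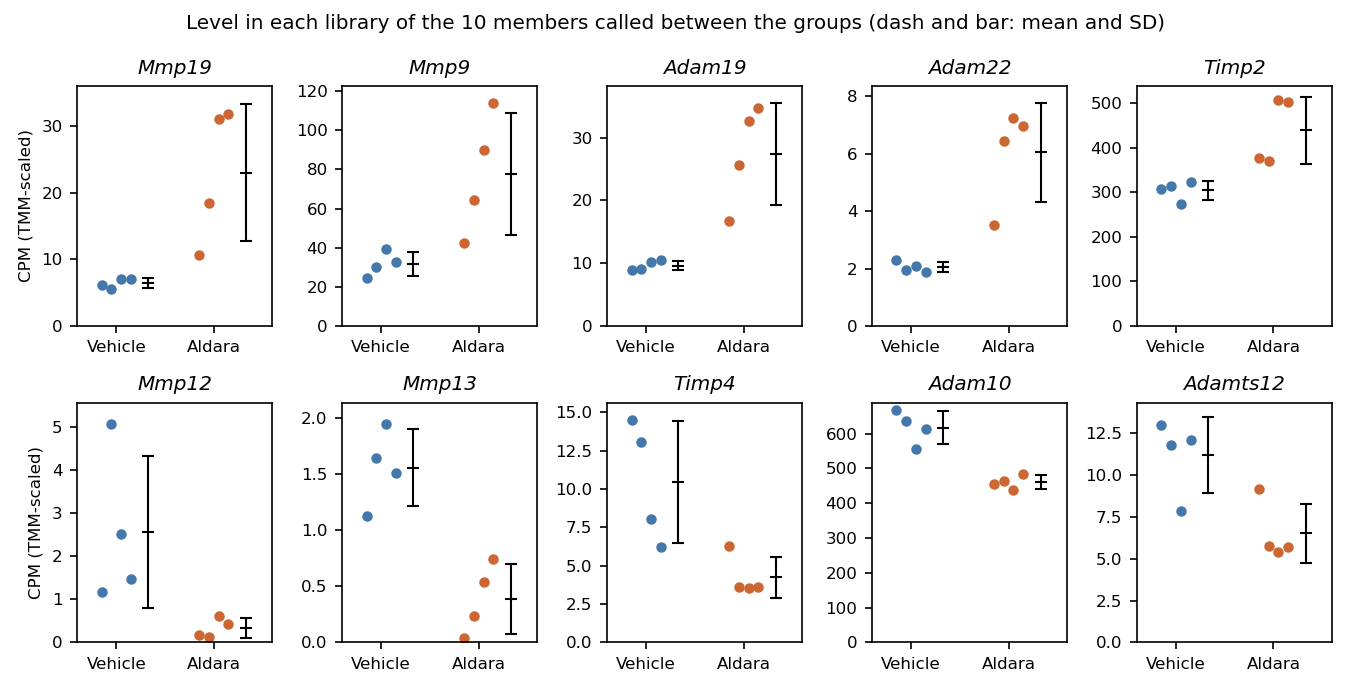
TMM-scaled CPM (y axis) in each of the 4 Vehicle and 4 Aldara libraries for the 10 called members, with the mean and SD beside the points. The upper row holds the 5 members that rose and the lower row the 5 that fell. The groups overlap for Timp4 and Adamts12 and not for the other 8.

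No difference was detectable in the membrane-anchored MMPs, of which Mmp14 and Mmp15 were abundant. Mmp14, which activates the precursor of Mmp2 together with Timp2, averaged 218 ± 10.2 CPM over Vehicle and 209 ± 21.7 over Aldara (n = 4 each, edgeR adjusted p = 0.762). With a standard error of 0.10 on the log2 scale, its difference of −0.06 was among the 3 most narrowly measured of the members. Mmp15 measured 430 ± 50.1 and 380 ± 57.6 CPM (edgeR adjusted p = 0.425). Mmp25, known from leukocytes, had a log2 fold change of −1.45 with a standard error of 0.59 and was not called (edgeR adjusted p = 0.148). Its Vehicle libraries ran from 0.395 to 1.89 CPM. Of the 5 tested membrane-anchored MMPs, 0 were called with edgeR, with DESeq2 or with the replicate block, and 1, Mmp25, passed 0.05 before adjustment with edgeR. Mmp17 and Mmp23 had log2 fold changes of −0.16 and −0.38.

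The TIMPs did not move together. Timp2 (ENSMUSG00000017466), which inhibits MMPs broadly, stood at 307, 314, 274 and 324 CPM in the Vehicle libraries and at 377, 371, 507 and 503 in the Aldara libraries. All Aldara libraries were above all Vehicle libraries, with replicates 3 and 4 of Aldara highest. In log2 units the groups differed by 0.53 (SE 0.13, edgeR adjusted p = 0.0241). Timp1, an inducible secreted inhibitor, measured 9.86 ± 2.43 and 7.98 ± 2.21 CPM (n = 4 each, edgeR adjusted p = 0.426). Timp3, the matrix-bound inhibitor that also blocks ADAM17, measured 74.2 ± 10.1 and 71.4 ± 10.9 CPM (n = 4 each, edgeR adjusted p = 0.837).

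Timp4 (ENSMUSG00000030317), an inhibitor with high expression in heart and fat, stood at 14.5, 13.1, 8.05 and 6.20 CPM in the Vehicle libraries and at 6.28, 3.59, 3.54 and 3.62 in the Aldara libraries. The groups overlapped slightly, since Aldara replicate 1 exceeded Vehicle replicate 4. The log2 fold change was −1.29 (SE 0.30, edgeR adjusted p = 0.0223). Timp4 lies inside the gene Syn2, which is on the opposite strand, and their exons share 90 bases in GENCODE M21. Syn2, a synaptic vesicle protein gene, stood at 802, 662, 145 and 274 CPM in the Vehicle libraries and at 34.8, 51.4, 31.3 and 53.9 in the Aldara libraries. Its log2 fold change was −3.46 (SE 0.52, edgeR adjusted p = 0.00545). Vehicle replicates 1 and 2 were highest for both genes, while Vehicle replicates 3 and 4 stood in opposite orders. In Aldara, Timp4 was highest in replicate 1 and Syn2 in replicate 4. Without strand, reads from Timp4 and from the unspliced RNA of Syn2 cannot be told apart, and the part of Syn2 in the Timp4 values was not tested. Of 8 adipocyte markers 3 rose, Adipoq, Cfd and Cidec, and 0 fell (1, Lipe, with the replicate block). The adipocyte sum lay between 416 and 464 CPM in Vehicle and between 331 and 475 CPM in Aldara, and was highest in Aldara replicate 1, as was Timp4 within its group. In Vehicle the sum was highest in replicate 2 and Timp4 in replicate 1. Most of the sum came from Fabp4, Pnpla2 and Lipe, at means of 156, 187 and 98.4 CPM in Vehicle and 131, 169 and 79.9 in Aldara.

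Among ADAMs with a catalytic site, Adam10 was the most abundant and was lower in Aldara. Adam10 (ENSMUSG00000054693), the sheddase of Notch receptors and of betacellulin, stood at 666, 635, 555 and 612 CPM in the Vehicle libraries and at 455, 465, 439 and 485 in the Aldara libraries. The groups did not overlap. The log2 fold change was −0.42 (SE 0.09, edgeR adjusted p = 0.0173), a fall by a smaller factor than that of the other called members. Adam17, which releases tumour necrosis factor, measured 77.0 ± 3.29 and 92.6 ± 13.2 CPM (n = 4 each). The 4 Aldara libraries of Adam17 lay above the 4 Vehicle libraries, with a log2 fold change of 0.26 (SE 0.10) that was not called (edgeR adjusted p = 0.129).

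Adam19 (ENSMUSG00000011256), a membrane protease that can cleave neuregulins, stood at 8.91, 9.002, 10.1 and 10.5 CPM in the Vehicle libraries and at 16.7, 25.6, 32.7 and 34.7 in the Aldara libraries. The groups were well apart, and Aldara replicate 1 was the lowest of its group. The change was, in log2, 1.51 (SE 0.20, edgeR adjusted p = 0.00272), the smallest adjusted p of the members. Adam8, an ADAM of leukocytes, stood at 11.4, 15.7, 17.6 and 14.5 CPM in the Vehicle libraries and at 15.1, 25.1, 38.7 and 36.6 in the Aldara libraries. Aldara replicate 1 lay within the Vehicle range. Adam8 had a log2 fold change of 0.96 (SE 0.28) and was not called (edgeR adjusted p = 0.057), but passed with the replicate block (edgeR adjusted p = 0.00586). It also passed without Aldara replicate 1 (edgeR adjusted p = 0.00171) and with DESeq2 (adjusted p = 0.00504). In the other 7 removals of 1 library Adam8 was not called (highest edgeR adjusted p = 0.159).

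Adam9 and Adam15, at 150 ± 11.7 and 166 ± 20.1 CPM in Vehicle (n = 4 each), and the scarcer Adam12 and Adam33 had log2 fold changes between −0.12 and 0.36, and none of these 4 was called. Of the 8 tested catalytic ADAMs, 1 rose, 1 fell and 6 were not called, beside 6.98% higher and 3.86% lower of all tested genes. ADAMs that lack a catalytic site act in adhesion and as receptors. Adam22 (ENSMUSG00000040537), a receptor of LGI proteins in neurons, stood at 2.30, 1.96, 2.09 and 1.86 CPM in the Vehicle libraries and at 3.50, 6.46, 7.25 and 6.97 in the Aldara libraries. The groups did not overlap, and the log2 fold change was 1.56 (SE 0.24, edgeR adjusted p = 0.00427). Its relatives Adam11 and Adam23 had log2 fold changes of −0.51 and −1.14 and were not called. Adam23 passed with the replicate block (edgeR adjusted p = 0.0471). Of the mostly germ-line remaining ADAMs 2 were tested, Adam1a and Adam4, with log2 fold changes of −0.08 and 0.14 and no call.

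Of the 16 tested ADAMTS genes, 1 fell, 0 rose and 15 were not called. The share called was 6.25%, beside 10.8% of all tested genes. A negative log2 fold change was seen in 12 of the 16, beside 8241 of all 16780 tested genes. The median of the family was −0.37. With upper-quartile scaling Adamts10 turned from 0.05 to −0.0037, and the sign of no other tested member changed with scaling. Adamts12 (ENSMUSG00000047497), which cleaves cartilage oligomeric matrix protein, stood at 13.0, 11.8, 7.88 and 12.1 CPM in the Vehicle libraries and at 9.18, 5.78, 5.43 and 5.69 in the Aldara libraries. Aldara replicate 1 exceeded Vehicle replicate 3, so the groups overlapped. On the log2 scale the difference was −0.78 (SE 0.21, edgeR adjusted p = 0.0405). Adamts17 and Adamts7 had log2 fold changes of −0.98 and −0.69 and were not called (edgeR adjusted p = 0.0578 and 0.101). Both passed with DESeq2 (adjusted p = 0.011 and 0.0339), and Adamts17 also with upper-quartile scaling (edgeR adjusted p = 0.047). Adamts10, the most abundant of this group at 34.3 ± 1.43 and 35.5 ± 2.13 CPM (n = 4 each), Adamts6 and Adamts18 were not called.

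The proteoglycanases, which cleave versican and aggrecan, held the abundant members of the family. Adamts1 measured 251 ± 55.5 and 191 ± 39.8 CPM, Adamts4 183 ± 32.8 and 158 ± 41.4 CPM, and Adamts9 72.1 ± 22.1 and 51.7 ± 10.2 CPM (n = 4 each). None of the 7 tested proteoglycanases was called with edgeR, and 0 of them had an unadjusted p under 0.05 or passed with DESeq2. Adamts9 passed with the replicate block (edgeR adjusted p = 0.0334). The only positive log2 fold change of the proteoglycanases was that of Adamts20, 0.54, and Adamts5, Adamts8 and Adamts15 lay between −0.34 and −0.13. Of the 3 procollagen N-proteinases, Adamts2 measured 9.94 ± 4.12 and 6.32 ± 0.939 CPM and was not called (n = 4 each, edgeR adjusted p = 0.144). It passed without Vehicle replicate 3 (edgeR adjusted p = 0.0475). In the other 7 removals of 1 library Adamts2 was not called (highest edgeR adjusted p = 0.362). Adamts3, the most abundant of the 3 at 14.5 ± 1.77 and 15.1 ± 2.94 CPM (n = 4 each), and Adamts14 were not called.

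The 14 members below the filter held between 10 and 57 counts over the 8 libraries. Mmp8, the collagenase of neutrophils, held 1 count in all Vehicle libraries together and 11 in the Aldara ones, and scaled to depth the Aldara level was 13.2 times that of Vehicle (exact 95% limits 1.92 and 567). Each of the 4 Aldara libraries held at least 2 of these counts. Among germ-line ADAMs, Adam24 held 15 and 1 counts, a scaled ratio of 0.0799 (exact 95% limits 0.0019 and 0.519). Adam25 held 17 and 4 counts (ratio 0.282, limits 0.069 and 0.864) and Adam3 held 9 and 19 (ratio 2.53, limits 1.09 and 6.35). For the other 10, Mmp16, Mmp21, Mmp24, Mmp27, Adam1b, Adam21, Adam28, Adam32, Adamts13 and Adamts16, the limits included a ratio of 1. None of the 14 was tested across libraries, and the limits cover counting error only. Mmp8 and Adam3 held at least 10 counts in Aldara and not in Vehicle, and Adam24 and Adam25 in Vehicle and not in Aldara. Members were chosen by their summed counts, and the limits do not allow for that choice.

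Marker levels ran beside several members in Aldara and less so in Vehicle. Within Aldara, Mmp19, Mmp9, Adam19 and Adam8 were lowest in replicate 1, next in replicate 2 and higher in replicates 3 and 4. The summed macrophage markers ran in the same way, at 4040, 5760, 10830 and 10039 CPM in replicates 1 to 4. In Vehicle the sum rose in the order of replicates 1, 2, 4 and 3, as did Mmp9. There Mmp19 rose in the order 2, 1, 3 and 4, Adam19 in the order 1, 2, 3 and 4, and Adam8 in the order 1, 4, 2 and 3. Of the 16 macrophage markers 10 rose (15 with the replicate block) and 0 fell, with a median log2 fold change of 1.59. Per 1000 CPM of summed macrophage markers, Mmp19 lay between 1.97 and 3.63 CPM in Vehicle and between 2.64 and 3.20 CPM in Aldara. Mmp9 lay between 10.98 and 14.5 in Vehicle and between 8.33 and 11.3 in Aldara, and Adam19 between 2.83 and 5.22 and between 3.02 and 4.45. On that scale the groups overlapped for Mmp19, Mmp9, Adam19, Adam22, Timp2 and Adamts12. Mmp12 lay between 0.58 and 2.00 in Vehicle and between 0.0208 and 0.057 in Aldara, with no overlap. Mmp13, Timp4, Adam10 and Adam8 were likewise lower in every Aldara library than in any Vehicle library on that scale. The scale depends on the markers summed, whose log2 fold changes ran from 0.42 (Fcgr1, not called) to 3.55 (Adgre1), and other sums were not tried. A member whose own CPM does not change is lower on this scale where the marker sum is higher. The scale was chosen after the values were seen, and the part of macrophage content in these changes was not tested.

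Fibroblast markers ran the other way, with 6 of 10 lower in Aldara (8 with the replicate block), 0 higher and a median of −1.29. Vehicle replicate 1 had the highest fibroblast sum, 607 CPM, and also the highest Adamts12, Adamts2 and Timp4. Aldara replicate 1 had the highest sum of its group, 163 CPM, and the highest Adamts12, Adamts2, Timp4 and Mmp2 of its group. In Vehicle, Mmp2 was highest in replicate 4 at 28.2 CPM, the library with the lowest fibroblast sum of its group, 229 CPM. Adamts12 and Adamts2 stood at 12.1 and 9.60 CPM in that library, next after replicate 1. Only Timp4 of these members followed the order of the fibroblast sum in all Vehicle libraries. In Aldara only Mmp2 did so, with the sum rising in the order of replicates 4, 2, 3 and 1. Timp4 rose there in the order 3, 2, 4 and 1. The part of fibroblast content in these levels was not tested. Summed neutrophil markers lay between 5.25 and 12.002 CPM in Vehicle and between 18.7 and 57.8 CPM in Aldara, mostly Csf3r, which macrophages also express. Of the other 7 neutrophil markers, none of which passed the filter, S100a8 held 10 counts in Vehicle and 46 in Aldara, S100a9 0 and 41, Retnlg 0 and 13, and Mpo 3 and 14. Elane held 2 and 3 counts, Cxcr2 2 and 2, and Ly6g 0 in all 8 libraries. S100a8, S100a9 and Retnlg were higher in every Aldara library than in any Vehicle library, as was Mmp8, and the part of neutrophils in the Mmp8 counts was not tested. Both tested B cell markers rose, Cd79b and Ighm, with log2 fold changes of 3.84 and 1.69, and the B cell sum, 65.6, 92.1, 157 and 154 CPM in Aldara replicates 1 to 4, ran in the order of the macrophage sum.

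**Figure D4:**
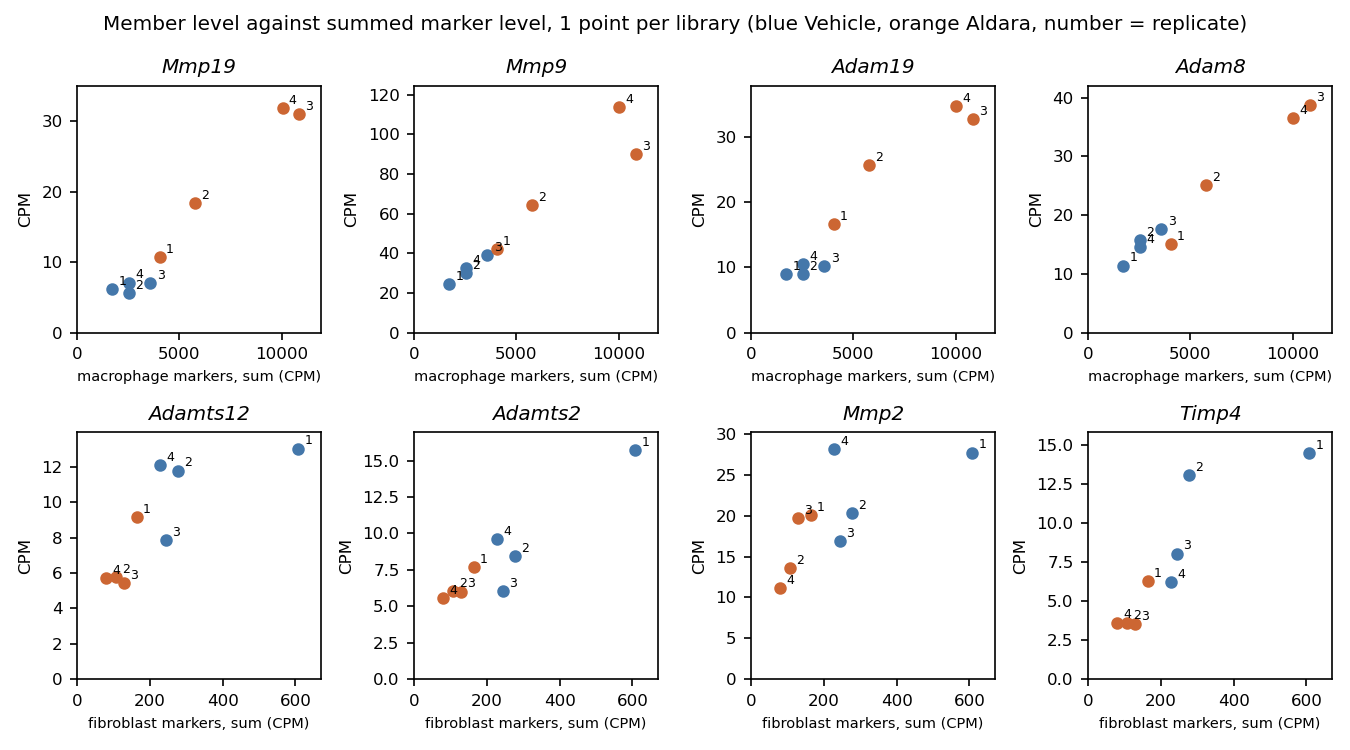
CPM of 8 members (y axis) against the summed CPM of macrophage markers (upper row) or fibroblast markers (lower row), 1 point per library, blue Vehicle and orange Aldara, numbered by replicate. In the upper row Aldara replicates 3 and 4 are high on both axes, and in the lower row Vehicle replicate 1 stands far right at 607 CPM.

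Other genes of the pathway were taken from 5 lists. In the order described below, the lists held 18, 24, 17, 8 and 9 tested genes. In that order 50%, 33.3%, 29.4%, 12.5% and 11.1% were called in either direction, beside 10.8% of all tested genes. Over these lists 9 genes were higher and 15 lower, beside 6.98% and 3.86% of all tested genes. With the replicate block 16 were higher and 20 lower, beside 9.21% and 6.14% of all tested genes. Of 18 tested matrix substrates 9 fell (11 with the replicate block) and 0 rose, with a median log2 fold change of −0.69. Eln, which encodes the elastin cut by macrophage elastase, fell from 181 ± 12.7 to 108 ± 12.7 CPM (n = 4 each, edgeR adjusted p = 0.00244). The basement membrane collagen Col4a1 fell by 0.95 (SE 0.16) on the log2 scale, the fibrillar collagen Col3a1 by 2.13 (SE 0.38) and the proteoglycan Dcn by 0.78 (SE 0.17). Col3a1, Dcn, Lum, Col1a1 and Col1a2 also stand in the fibroblast list.

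Of 24 tested proteins known to be shed, 4 rose and 4 fell, with a median of 0.27. Areg, Btc and Jag1, which include 2 epidermal growth factor receptor ligands, and Trem2 were lower. Btc, betacellulin, fell from 19.9 ± 6.10 to 8.50 ± 0.565 CPM, and Trem2, a lipid receptor of macrophages, from 8.91 ± 2.31 to 1.21 ± 0.255 CPM (n = 4 each, edgeR adjusted p = 0.00441 and 0.000794). Cd44, the hyaluronan receptor, rose from 58.9 ± 3.26 to 136 ± 24.5 CPM and Notch2 from 94.8 ± 8.34 to 168 ± 30.3 CPM (n = 4 each, edgeR adjusted p = 0.000956 and 0.00475). Hbegf and the receptor Tnfrsf1b were the other 2 that rose. With the replicate block 9 of these genes were higher and 4 lower.

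Of 17 tested activators, partners and clearance genes 3 rose (4 with the replicate block) and 2 fell, with a median of 0.08. Pcsk6, a convertase that can activate metalloproteinase precursors, fell from 9.51 ± 4.21 to 2.98 ± 0.568 CPM, and Bsg, the MMP inducer basigin, from 632 ± 129 to 418 ± 23.7 CPM (n = 4 each, edgeR adjusted p = 0.00627 and 0.0193). Lrp1, which clears protease complexes, and Tspan17, a tetraspanin partner of ADAM10, rose, with log2 fold changes of 0.93 (SE 0.18) and 0.36 (SE 0.08). Spock2 was the other gene that rose. Of 8 tested genes of plasminogen activation Plgrkt, a plasminogen receptor, rose (log2 fold change 0.45, SE 0.11, edgeR adjusted p = 0.0262) and 0 fell, and Plau was not called. Plaur, the urokinase receptor, had a log2 fold change of 0.71 and was not called (edgeR adjusted p = 0.114), but passed with the replicate block (edgeR adjusted p = 0.000753). Of 9 tested related metzincins and ADAMTS-like genes Adamtsl4 rose from 23.6 ± 1.52 to 38.1 ± 3.18 CPM (n = 4 each, edgeR adjusted p = 0.00235) and 0 fell. With the replicate block 3 were lower, Adamtsl1, Papln and Thsd4 (edgeR adjusted p = 0.0361, 0.0146 and 0.0181).

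Leaving out 1 library at a time kept the calls on Mmp19, Mmp12, Adam19 and Adam22 in all 8 cases, with highest edgeR adjusted p-values of 0.0322, 0.0417, 0.0141 and 0.0172. Adam10 lost its call when Vehicle replicate 2 or Aldara replicate 3 was removed (highest adjusted p = 0.0566). For Mmp9 this held for removal of Vehicle replicates 1 and 2 and of Aldara replicates 3 and 4 (highest 0.0641). For Timp2 it held for Vehicle replicates 1, 2 and 3 and for Aldara replicates 3 and 4 (highest 0.085). Removal of Vehicle replicates 1 or 2, or of any Aldara library but the first, ended the call on Timp4 (highest 0.0744). Removal of any Vehicle library but the first, or of Aldara replicates 2 or 3, ended the call on Mmp13 (highest 0.0901). Adamts12 lost its call on removal of any 1 library other than Vehicle replicate 3 or Aldara replicate 1 (highest 0.112).

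**Figure D5:**
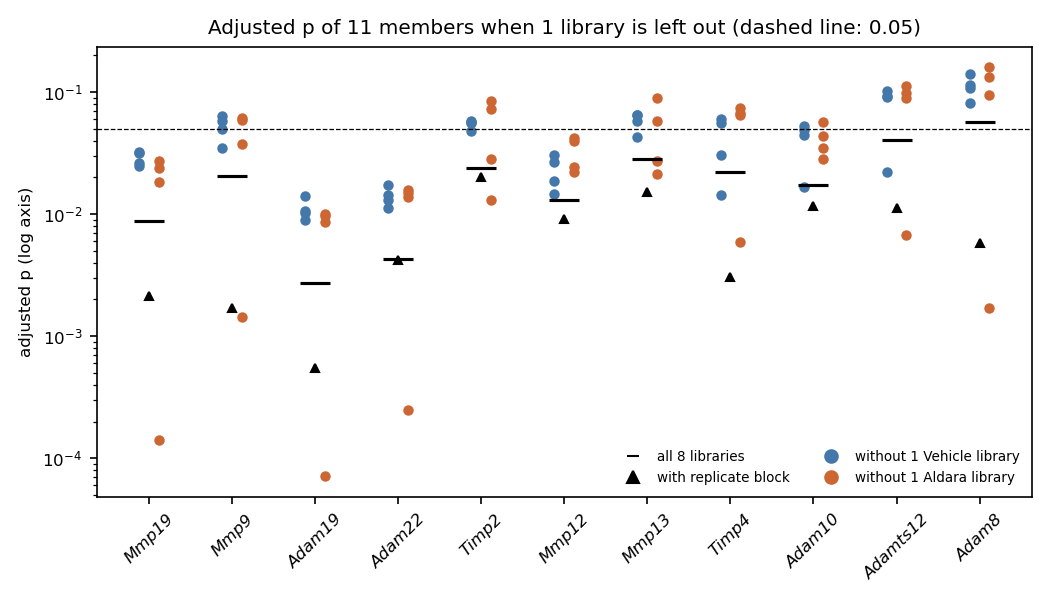
Adjusted p (log axis) of the 10 called members and Adam8 with all 8 libraries (dash), with the replicate block (triangle) and without each single library (circles, blue for a Vehicle library, orange for an Aldara library). The circles of Mmp19, Mmp12, Adam19 and Adam22 stay under 0.05, and those of the other 7 members lie on both sides of it.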

How the data were processed

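RNA of F4/80-selected fat pad cells was amplified with a SMARTer kit, which does not mark strand, per the labels' protocols. The authors deposited whole-number read counts per gene, not normalised, for 8 libraries. The submitters' processing notes name the build mm10 and the tools HISAT2 2.0.5, featureCounts 1.5.0-p3 and DESeq2. The sources used here do not give counting options or annotation.

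Of the 56748 identifiers 52073 had a symbol in GENCODE M21. Some identifiers are newer than that release, so exon lengths are approximate. Counts were tested with edgeR 4.0.16 in R 4.3.3: filterByExpr (16780 genes), TMM factors, robust quasi-likelihood F test, Benjamini-Hochberg over all tested genes, threshold 0.05. Levels are TMM-scaled CPM as mean ± SD. DESeq2 1.42.0 was run as an alternative. On counts simulated for Aldara against Vehicle over 16780 genes, the test recovered 70.1% of simulated log2 changes of 1 and 92.7% of log2 changes of 2, and 5.99% of its calls were false.

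Members and gene lists were chosen with earlier results of these data known. Named were all called members, the most abundant member and the one of smallest p of each role, a set of well-known members, and up to 4 called genes of each pathway list by smallest p. Any further gene was named with its values known. Chi-square per degree of freedom between libraries of a group was at least 20.4, above sampling noise, so none was counted as a duplicate. Both groups carry replicate numbers 1 to 4 in the labels. Deviations of same-numbered libraries from their group means correlated at 0.23, 0.11, 0.17 and 0.22 across genes. Each library matched its own number best in the other group. The main fit has no replicate block, so its calls and p-values ignore this pairing, and only the block fit uses the numbers as pairs. The fit with replicate as a block is given where it changes a call on a member or a count over a gene list stated here.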

Additional observations from a re-analysis of the deposited data

Results flagged for a closer look

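Within groups of 4 libraries, 1 library stood apart from the other 3 in 5 of the 92 groups examined (46 tested members in each of 2 groups), where chance flags about 1 in 20. Timp4 in Aldara replicate 1 measured 6.28 CPM, and the other 3 Aldara libraries lay between 3.54 and 3.62 CPM. Adamts12 in Aldara replicate 1 measured 9.18 CPM, beside 5.43 to 5.78 CPM in the others. Adamts8 in Aldara replicate 4 measured 1.92 CPM, beside 3.55 to 3.76 CPM. Adam1a in Aldara replicate 2 measured 2.99 CPM, beside 1.48 to 1.71 CPM, and its exons overlap those of Mapkapk5 and Tmem116. Adamts10 in Aldara replicate 2 measured 32.4 CPM, beside 36.4 to 36.9 CPM.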

How the results depend on the processing

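The 10 calls on members were kept under upper-quartile or RLE scaling, a filter of 10 counts over the 8 libraries, DESeq2 and the replicate block, which gave 5, 5, 5, 6 and 6 higher and 6, 5, 5, 7 and 7 lower members. The replicate block added Adam8, Adam23 and Adamts9 and changed no other call on a member. Leaving out 1 library gave 3 to 6 higher and 1 to 6 lower members. For genes of the pathway lists, DESeq2 gave 14 higher and 17 lower, and the replicate block 16 higher and 20 lower. Leaving out 1 library gave 6 to 13 higher and 10 to 19 lower of these genes. Over all genes, 1171 were higher and 647 lower (64.4% of calls higher). The lower genes numbered 990 with upper-quartile factors (49.7% higher), 1198 with DESeq2 and 1030 with the replicate block. Without 1 library 629 to 1405 were higher and 323 to 664 lower. Signs turned for uncalled members close to 0 and for Mmp3, whose main log2 fold change was −0.43 (SE 0.59). Adamts10 turned to −0.0037 with upper-quartile factors. The others turned without 1 library, in the ranges −0.27 to 0.065 (Adam12), −0.38 to 0.051 (Adam1a), −0.065 to 0.12 (Adamts3), −0.28 to 0.048 (Adamts5), −0.42 to 0.032 (Mmp17), −0.92 to 0.036 (Mmp3) and −0.14 to 0.029 (Timp3). The cause was not tested. The highest counts of higher genes, 1405 over all genes and 6 among members, came without Aldara replicate 1. Depth limits the 14 untested members, since 3 counts are worth up to 0.154 CPM before TMM scaling.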
